A study of Homo sapiens with 4 samples.

Results

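The genes described here are the WNT ligands, their receptors and the regulators of their signal, in RNA from human pluripotent stem cells (hPSCs). They were chosen by symbol, from WNT1 to WNT16, the FZD, DKK, SFRP and RSPO families, LGR4 to LGR6, LRP5, LRP6, AXIN1, AXIN2, TCF7, TCF7L1, TCF7L2, LEF1, CTNNB1, APC and PORCN. This gave 55 members among the 33640 genes in the files. As the choice was made from the symbols in the files, a gene absent from them would not be seen. The cells were H9, an hPSC line in the primed state, grown in Essential 8 medium on Geltrex. Nuclei were extracted, fixed with a low concentration of formaldehyde and taken through reverse transcription (RT) of poly(A) RNA with a barcoded poly-T primer. In the 2 libraries called Pre, RT came before tagmentation by Tn5, and in the 2 called Post it came after. In each order, the RNA only library was made without profiling of DNA, and the RNA and DNA library came from nuclei in which H3K27me3 and H3K27ac were profiled as well. Whether the nuclei of RNA only libraries were tagmented, and how, is not given in the sources used here. No differentiation treatment was given, and with 1 library in each of the 4 conditions there is no replicate check of any difference.

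WNT proteins are lipid-modified ligands, and PORCN is the acyltransferase of the endoplasmic reticulum that adds the lipid. They bind Frizzled receptors (FZD) together with the co-receptors LRP5 and LRP6, and R-spondins acting through LGR4 to LGR6 keep these receptors at the cell surface. Without ligand, a destruction complex built on APC and the AXIN scaffolds marks β-catenin (CTNNB1) for degradation, and with ligand β-catenin enters the nucleus and acts through the TCF and LEF factors. SFRP proteins bind WNT ligands outside the cell and DKK1 blocks the LRP co-receptors. In primed hPSCs, WNT signals are known as inducers of mesendoderm, and TCF7L1 is known as a repressor of WNT target genes.

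The RNA of every member was captured through the RT primers, which differ between libraries only in a 5-base RT identifier. Their constant part is followed by the identifier, shown in capitals, and then by 8 UMI bases and 15 T. The sequences below stop before the UMI and the T stretch, which pairs with the transcript, and are shown because the identifier is what separates the libraries in the reads.
RT primer 1: aggccagagcattcgAGCAA
RT primer 2: aggccagagcattcgCCTAA
RT primer 3: aggccagagcattcgGTCGA
RT primer 4: aggccagagcattcgTGTGA

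Total counts ranged from 6368721 to 10089552 per library. Members took 0.275% (Pre) and 0.178% (Post) of the counts of the RNA only libraries, and 0.278% (Pre) and 0.254% (Post) of those made with DNA. The Post, RNA only library stood apart, because 6 genes named FP236383 and FP671120 took 34.8% of its counts and between 10.7% and 15.8% of the others. Counts were divided by the library total to give reads per 1000000 (RPM), and ratios between libraries were set against the median ratio of the 11564 genes that averaged 10 RPM or more, called the relative log2 ratio below. The median that was taken out was -0.44 for Post over Pre in the RNA only pair and 0.38 for DNA profiling over RNA only in the Post pair, which are the comparisons that rest on Post, RNA only. It was -0.09 and 0.03 in the other two. Levels given in RPM were not corrected for this shift. Intervals are exact 95% intervals and cover counting error only. They are narrower in genes with more reads, so such genes are clear of 0 more often. The shares of all genes given beside counts of intervals were not matched for reads or gene span. The hPSC label was borne out by its markers, since 14 of 14 pluripotency markers lay at 12.8 RPM or more in every library. Mesendoderm markers summed to between 2.20 and 4.27 RPM, with TBXT, GSC and MESP1 at 0 in at least 1 library, and endoderm markers summed to between 4.40 and 8.43 RPM, with SOX17 and HHEX at 0 in at least 1. Of 6 neuroectoderm markers only NES passed 10 RPM, at 153 to 203 RPM, and of 6 stromal markers COL1A2 passed it at 20.3 to 29.6 RPM, while DCN and LUM were at 0 in at least 1 library. The part of these other cells in the values below was not tested. In bulk RNA, fewer cells of a type and less RNA per cell cannot be told apart.

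Most member reads in these nuclei came from the intracellular end of the pathway, the large receptors and 2 secreted antagonists, while the ligands had few reads. TCF7L1, TCF7L2, CTNNB1, SFRP1, LRP6, SFRP2, APC and LGR4 held between 79.1% and 81.9% of the member counts in each library. Members with at least 1 count numbered 55 and 51 in the Pre libraries (RNA only first, then RNA and DNA) and 52 and 54 in the Post libraries, the order in which values are given from here on. An average of 10 RPM or more was reached by 22 members, called measured members below, and these held between 97.0% and 97.7% of the member counts. TCF7L1 and TCF7L2 alone held 38.8%, 38.0%, 29.8% and 37.9% of them, so the Post, RNA only library had the lowest share. The filter on the mean kept WNT2B, at a mean of 11.5 RPM, and left out FZD4, at 6.21 RPM.

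**Figure D1:**
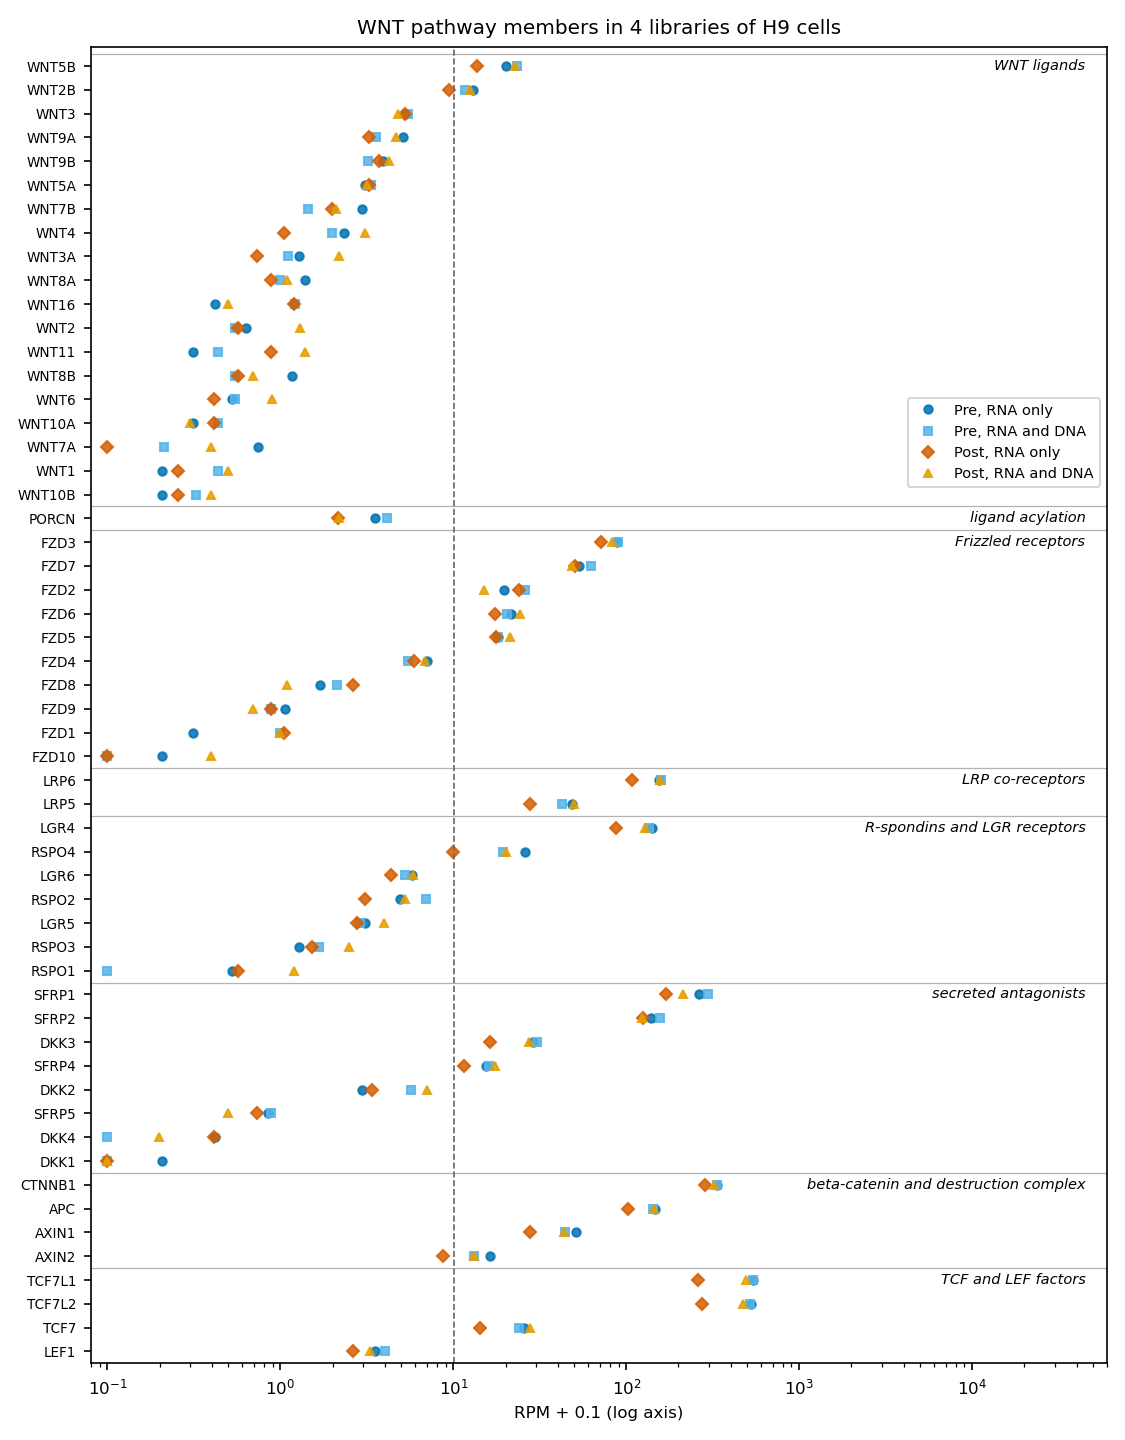
Levels of all 55 members in the 4 libraries, grouped by role; the x axis is RPM plus 0.1 on a log scale and the dashed line marks 10 RPM. The TCF factors, CTNNB1 and SFRP1 lie farthest to the right, while 17 of 19 ligands lie below the dashed line in every library.

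Of the 19 ligands, 2 were measured. WNT5B, a ligand best known for signalling without β-catenin, had 20.2, 23.2, 13.7 and 22.7 RPM. WNT2B, a ligand of the β-catenin branch, had 12.8, 11.5, 9.26 and 12.4 RPM. Both were lowest in Post, RNA only, but after the median of all genes was taken out their ratios were within counting error of 0 in all 4 comparisons. A further 7 ligands had a mean of 1 to 10 RPM. Among these WNT9A ranged from 3.14 to 5.01 RPM, WNT9B from 3.12 to 4.16, and WNT5A, another ligand of the β-catenin-independent branch, from 2.99 to 3.24. WNT3, a ligand that acts in primitive streak formation, had a mean of 5.08 RPM, and WNT3A, close to it in sequence and often used as the recombinant ligand, ranged from 0.628 to 2.08 RPM. None of these reached 10 RPM in any library. WNT7B ranged from 1.34 to 2.88 RPM and WNT4 from 0.942 to 2.97 RPM. The remaining 10, WNT1, WNT2, WNT6, WNT7A, WNT8A, WNT8B, WNT10A, WNT10B, WNT11 and WNT16, had means under 1 RPM, and no value above 1.29 RPM. WNT7A had 0 counts in Post, RNA only, which allows a level of up to 0.471 RPM if a count of 0 is taken to allow 3 counts. PORCN, which all these ligands need for secretion, had 3.41, 4.02, 2.04 and 2.08 RPM.

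Among the 10 Frizzled receptors, 5 were measured. FZD3, a receptor known from planar cell polarity and axon guidance, had the most reads of them, with 88.5, 89.1, 71.4 and 82.5 RPM. FZD7, a receptor known for its part in hPSC self-renewal, followed with 53.2, 61.9, 50.2 and 48.3 RPM. FZD2 had 19.6, 25.9, 23.7 and 14.9 RPM. FZD2, FZD7 and SFRP2 had their lowest value in Post, RNA and DNA, whereas the other 19 measured members were lowest by RPM in Post, RNA only. FZD6 had 21.3, 20.4, 17.3 and 24.3 RPM and FZD5 lay between 17.6 and 21.2 RPM, on 168, 161, 112 and 214 counts. FZD4 ranged from 5.36 to 6.93 RPM and FZD8 from 0.991 to 2.51 RPM. FZD1, FZD9 and FZD10 had means under 1 RPM. FZD1, FZD2 and FZD7 are close in coding sequence. The methods, written for the single-cell data, retain reads with a unique place in the genome, so reads that fit more than 1 of these genes may be missing. The co-receptor LRP6 had 155, 157, 107 and 157 RPM and LRP5 had 48.1, 42.5, 27.6 and 49.4 RPM, and both were lowest in Post, RNA only. Relative to the median of all genes, LRP6 was within counting error for Post over Pre with RNA only, at -0.09 (-0.23 to 0.04), and LRP5 was below it, at -0.34 (-0.62 to -0.11).

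LGR4 was the only receptor for R-spondins that was measured, with 141, 135, 87.3 and 127 RPM. LGR6 ranged from 4.24 to 5.75 RPM, and LGR5, a stem cell marker in the intestine, from 2.67 to 3.87 RPM. Of the R-spondins, RSPO4 was the only one measured, with 25.8, 19.3, 9.89 and 19.9 RPM. By RPM it had the widest spread of any measured member, 2.61-fold between its highest and lowest library, against a median of 1.66-fold over the measured members and 1.17-fold for CTNNB1, which had the narrowest. With each library centred on the median of all genes, FZD2 had the widest spread, 2-fold, followed by RSPO4 with 1.82-fold, and APC the narrowest, 1.10-fold. RSPO2 ranged from 2.98 to 6.81 RPM, RSPO3 from 1.17 to 2.38 RPM and RSPO1 from 0 to 1.09 RPM.

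Among the 8 secreted antagonists, SFRP1 had 264, 295, 170 and 214 RPM and SFRP2 had 138, 156, 125 and 123 RPM. By RPM the 2 Pre libraries lay above the 2 Post libraries in both genes. Relative to the median of all genes this held for SFRP1, while SFRP2 was higher in Post in the RNA only pair, at 0.30 (0.17 to 0.43). DKK3, a DKK family protein that does not act on LRP6 as DKK1 does, had 28.6, 30.5, 16.2 and 27.4 RPM, and SFRP4 had 15.2, 15.8, 11.5 and 17.2 RPM. DKK2 ranged from 2.88 to 6.94 RPM, and by RPM its RNA and DNA library was the higher in both orders of RT, on 168 counts in all. Relative to the median of all genes, DNA profiling over RNA only stood at 0.74 (0.23 to 1.66) in the Pre pair. In the Post pair it stood at 0.51 (-0.03 to 1.47), an interval that includes 0. With a mean of 4.67 RPM, DKK2 was not among the genes tested. Its ratios were taken after 1 RPM was added to each level, and its intervals were not. At such low levels ratio and interval are thus not on the same scale. SFRP5, DKK4 and DKK1 had means under 1 RPM, and DKK1, a target gene of WNT signals as well as an inhibitor, had 1 count in all 4 libraries together.

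The 4 members that belong to the destruction complex or are its substrate were all measured. CTNNB1 had 333, 335, 285 and 320 RPM, the most even values of any measured member by RPM but not after centring, when its spread was 1.18-fold. APC had 146, 142, 102 and 144 RPM and AXIN1 had 51.2, 44.3, 27.5 and 43.4 RPM. AXIN2, the scaffold that is itself a target gene of β-catenin and often read as a reporter of the pathway, had fewer reads, with 16.2, 13.1, 8.64 and 13.0 RPM. Of the TCF and LEF factors, TCF7L1 had 539, 541, 259 and 490 RPM and TCF7L2 had 526, 517, 272 and 475 RPM, so both were at about the same level in 3 libraries and well below it in Post, RNA only. TCF7 had 25.5, 23.8, 14.1 and 27.5 RPM, and LEF1, a factor induced in mesendoderm, stayed between 2.51 and 3.91 RPM. Of the measured members, CTNNB1, LRP6, TCF7, DKK3, WNT5B, WNT2B, SFRP4 and FZD6 overlap a gene on the opposite strand that is also in the files, and TCF7L1 overlaps TCF7L1-IT1 on its own strand, so some of their reads may be shared.

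Levels of different genes were compared only as RPM per kb of the canonical transcript, a scale that assumes reads along the whole spliced transcript, and reads from introns or from the 3′ end alone would not follow it. TCF7L1 was highest with a mean of 153 RPM per kb, followed by TCF7L2 with 110, CTNNB1 with 87.0, SFRP2 with 68.0, SFRP1 with 52.8, LGR4 with 23.4 and LRP6 with 14.0. The counting intervals of neighbours in this order of means, down to LRP6, did not overlap in any library. TCF7L2 and CTNNB1 changed places in Post, RNA only, and the other neighbours down to LRP6 kept their order in all 4. That change put TCF7L2 next to SFRP2 in Post, RNA only, where their intervals overlapped. They had 66.8 (63.7 to 70.1) and 62.8 (58.5 to 67.3) RPM per kb. Below LRP6 the order was loose, since APC, FZD7, AXIN1, DKK3, WNT5B, LRP5, TCF7 and RSPO4 lay between 12.5 and 6.79 RPM per kb and the intervals of each neighbouring pair overlapped in at least 2 libraries. SFRP2 ranked above SFRP1 per kb although it had fewer reads, because its transcript is 1996 bases long against 4464 for SFRP1. FZD3 took place 16 of the 55 by the same measure, since its transcript has 13770 bases, and FZD7 was then the highest Frizzled with 11.6 RPM per kb. Per kb of all exons of the gene, a longer measure that takes in every annotated transcript, the order changed. By the mean, TCF7L1 was still highest with 103, but SFRP2 came next with 68.0, then TCF7L2 with 66.4, SFRP1 with 49.8 and CTNNB1 with 27.1. In Post, RNA only, SFRP2 was highest on that scale, with 62.8 against 58.4 for TCF7L1, and SFRP2 and TCF7L2 changed places between libraries. The values of TCF7L2, CTNNB1, DKK3, TCF7, AXIN1 and WNT5B were more than 1.5 times lower on that scale, and DKK3 went from place 11 to place 21 with 2.14 RPM per kb.

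**Figure D2:**
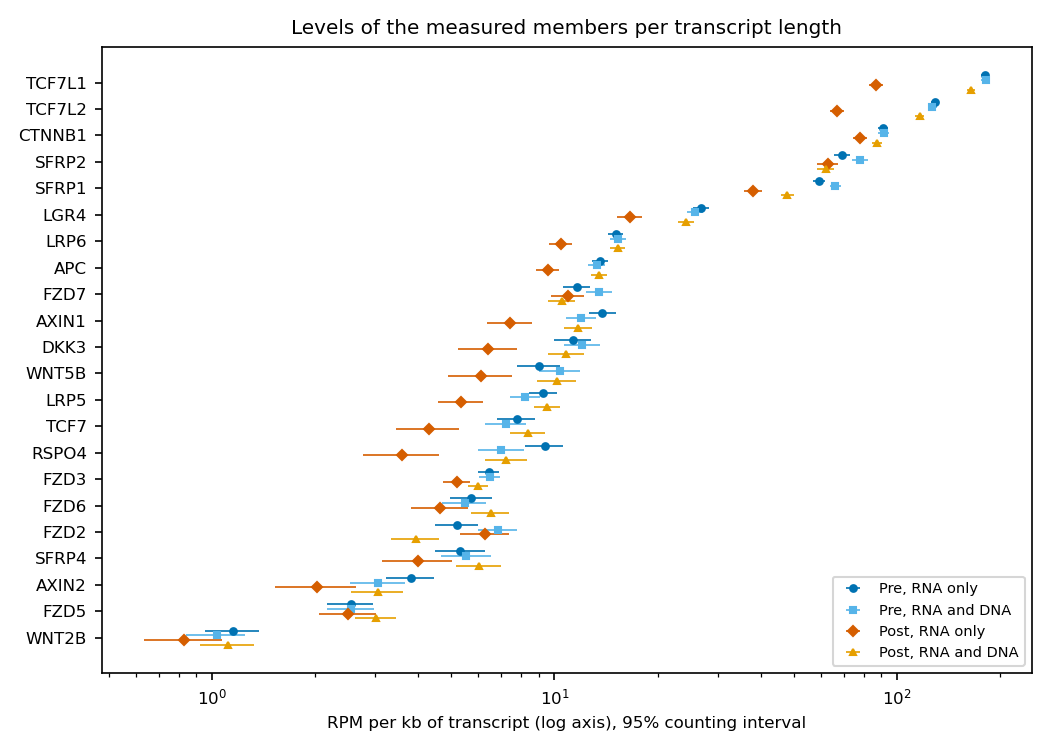
RPM per kb of canonical transcript for the 22 measured members on a log axis, with 95% counting intervals, 1 symbol per library. The points of TCF7L1 and TCF7L2 in Post, RNA only lie well to the left of those in the other 3 libraries, while the FZD7 and FZD5 points of the 4 libraries lie close together.

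The first comparison asked what the order of RT and tagmentation did to these genes. In the RNA only pair, no measured member was 2-fold apart, against 1.38% of all genes tested. The median relative log2 ratio of the measured members was -0.09, with 9 members above 0 and 13 below it, and all genes had quartiles of -0.19 and 0.21. The counting interval lay clear above 0 for 5 members, where 18.8% of all genes did so, and clear below 0 for 10, where 21.4% did. Those above were FZD2, FZD5, FZD7, SFRP2 and CTNNB1. Those below were RSPO4, TCF7L1, TCF7L2, AXIN1, AXIN2, TCF7, DKK3, LRP5, LGR4 and SFRP1. The largest differences were in RSPO4, at -0.86 (interval -1.37 to -0.54), FZD2, at 0.70 (0.39 to 1.03), and TCF7L1, at -0.62 (-0.70 to -0.54). TCF7L2 stood at -0.51 (-0.59 to -0.43) and CTNNB1 at 0.22 (0.13 to 0.30). The factors and the co-activator they bind thus lay on opposite sides of the median in this pair.

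In the RNA and DNA pair, again no measured member was 2-fold apart, against 0.251% of all genes. The members' median was 0.06, with 14 above and 8 below, and quartiles for all genes were -0.16 and 0.14. The interval was clear above 0 for FZD5, FZD6, TCF7, LRP5 and APC, 5 members against 17.7% of all genes, and clear below it for FZD2, FZD7, SFRP1 and SFRP2, 4 members against 19.7%. FZD2 had -0.67 (-1.01 to -0.40) and SFRP1 had -0.37 (-0.45 to -0.29). TCF7L1 and TCF7L2, at -0.05 (-0.11 to 0.01) and -0.03 (-0.09 to 0.03), were within counting error of the median of all genes.

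The pairs share no library, so members on the same side in both were counted. None was 2-fold apart the same way in both, against 0.147% of all genes. By counting intervals, FZD5 was the only member higher in Post in both pairs, with 0.41 (0.05 to 0.77) and 0.32 (0.03 to 0.64), where 3.88% of all genes were, and SFRP1 was the only one lower, with -0.19 (-0.30 to -0.09) and -0.37, where 4.32% were. FZD5 acts in the β-catenin branch, and SFRP1 is the antagonist with the most reads here. An additive model of both factors, with 1 residual degree of freedom, called no member for the order of RT with edgeR (0.0173% of all genes, 2 genes) or with DESeq2 (0.225%, 26 genes), and no member had an unadjusted edgeR p under 0.05, where 357 genes did. In 5 members the intervals lay clear of 0 on opposite sides in the pairs, where 10.2% of all genes did so. They are FZD2, FZD7 and SFRP2, higher in Post when only RNA was taken and lower when DNA was profiled too, and LRP5 and TCF7, which were the reverse.

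**Figure D3:**
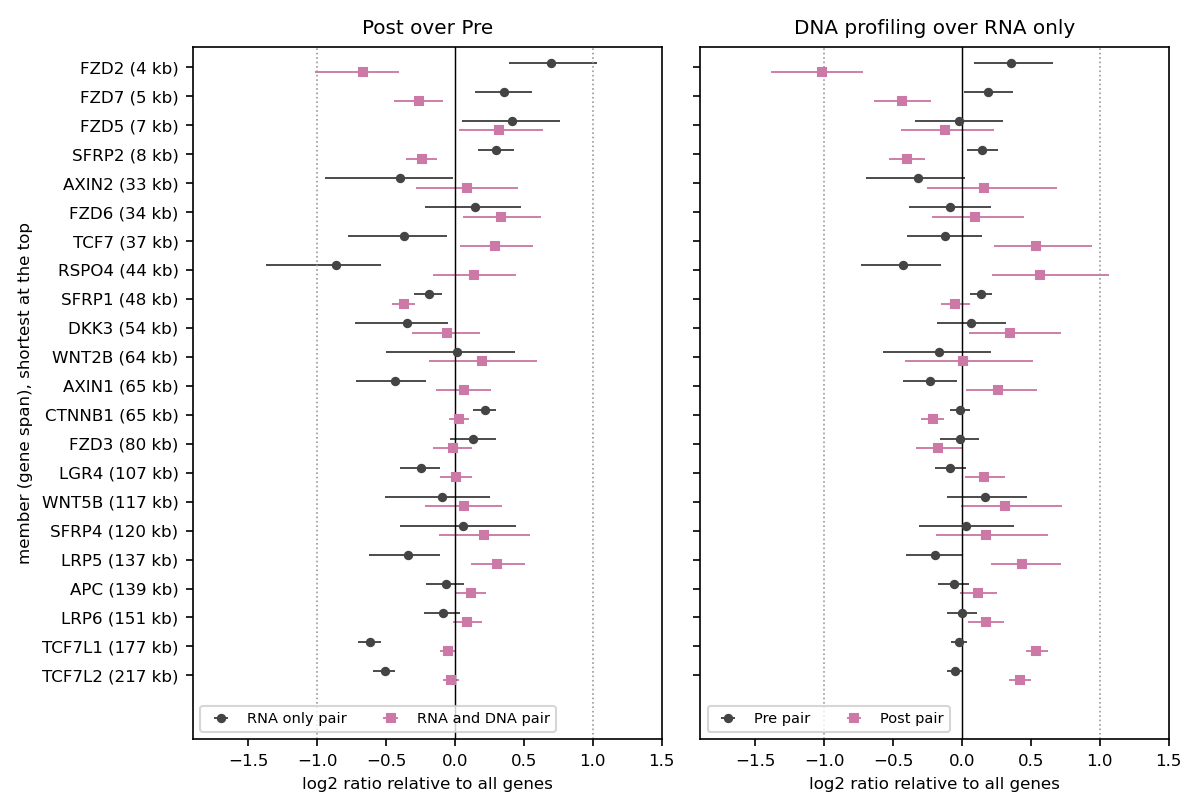
Relative log2 ratios of the 22 measured members with 95% counting intervals, for Post over Pre (left) and DNA profiling over RNA only (right), ordered by gene span with the shortest gene at the top; dotted lines mark 2-fold. FZD2, FZD7 and SFRP2 lie on opposite sides of 0 in the 2 pairs of each panel, and only FZD2 in the Post pair of DNA profiling passes a dotted line.

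The second comparison asked whether profiling H3K27me3 and H3K27ac in the same nuclei changed these genes. It uses the same 4 libraries as the first, so its values are not independent of those above. In the Pre pair, no measured member was 2-fold apart (0.0173% of all genes), and the members' median was -0.02. The interval was clear above 0 for 4 members (7.58% of all genes) and clear below for 3 (6.96%). The 4 were FZD2, at 0.36 (0.09 to 0.66), FZD7, SFRP1 and SFRP2, at 0.19, 0.14 and 0.15, and the 3 were RSPO4, at -0.43 (-0.73 to -0.16), AXIN1, at -0.23, and LRP5, at -0.20. TCF7L1, TCF7L2 and CTNNB1, the members with the most reads, were at -0.02, -0.05 and -0.02, within counting error.

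In the Post pair, FZD2 was 2-fold lower with DNA profiling, at a relative log2 ratio of -1.02 (-1.39 to -0.72), or 0.494-fold, where 2.36% of all genes were 2-fold apart. Its values there were 23.7 RPM in RNA only and 14.9 RPM in RNA and DNA. The members' median was 0.16, beside quartiles of -0.21 and 0.19 for all genes. The interval was clear above 0 for 9 members (20.7% of all genes) and below for 5 (20.4%). The 9 included RSPO4 at 0.56, TCF7L1 at 0.54, TCF7 at 0.53, LRP5 at 0.44, TCF7L2 at 0.42 and DKK3 at 0.35, and the 5 were FZD2, FZD7 at -0.43, SFRP2 at -0.40, CTNNB1 at -0.21 and FZD3 at -0.17. In 6 members the intervals lay on opposite sides in these pairs (7.86% of all genes), namely FZD2, FZD7, SFRP2, LRP5, RSPO4 and AXIN1. No member was on the same side in both pairs by counting intervals, where 0.389% of all genes were higher and 0.51% lower in both, and none by the 2-fold rule (0.00865%). The additive model called no member for DNA profiling either, with edgeR (0.0% of all genes, and 67 genes at an unadjusted p under 0.05) or with DESeq2 (0.00865%).

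The ratios were also read by gene span, a grouping made after their values were seen. Positions are those of GRCh38. FZD2 (chr17:44557484-44561262, plus strand) and FZD7 (chr2:202033855-202038441, plus strand) have a single exon and no intron, FZD5 (chr2:207762598-207769906, minus strand) has 2 exons, and SFRP2 (chr4:153780591-153789083, minus strand) has 3 exons. These 4 are the measured members with a span under 10 kb. All 4 were above the median in the RNA only pair, with a median of 0.38, and all protein-coding genes of that span had 0.39, with 738 of 858 above. In the RNA and DNA pair 3 of the 4 were below, with a median of -0.25, beside -0.29 for all such genes, and FZD5 was the exception. With DNA profiling in the Post pair all 4 were below, with a median of -0.42, beside -0.56. FZD7 and SFRP2 lay within the quartiles of that class in each of these 3 comparisons and FZD2 beyond them in each, while FZD5 lay within them in the RNA only pair and above them in the other two.

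The 8 measured members of 100 kb or more were APC, LGR4, LRP5, LRP6, SFRP4, TCF7L1, TCF7L2 and WNT5B. TCF7L1 (chr2:85133392-85310387, plus strand) and TCF7L2 (chr10:112950247-113167678, plus strand) are the longest of them. In the RNA only pair 7 of the 8 were below the median, with a median of -0.17, beside -0.09 for all 2816 protein-coding genes of that span. In the RNA and DNA pair 6 of 8 were above, with 0.08 beside 0.10, and with DNA profiling in the Post pair 8 of 8 were above, with 0.24 beside 0.15. Across the 22 measured members, Spearman's rho of span with the ratio was -0.46 for Post over Pre with RNA only, 0.11 with RNA and DNA, -0.17 in the Pre pair of DNA profiling and 0.54 in its Post pair, and across 9690 protein-coding genes it was -0.34, 0.50, -0.24 and 0.55. These points are genes of the same libraries and not independent replicates. The 14 pluripotency markers had medians of the same sign as the short members, but not all lay on one side. For Post over Pre with RNA only the median was 0.25, with intervals clear above 0 for 7 and below for 3, and with RNA and DNA it was -0.19, with 1 above and 7 below. With DNA profiling it was 0.14 in the Pre pair, with 7 above and 1 below, and -0.35 in the Post pair, with 2 above and 11 below. The part of gene span or of those markers in the members' ratios was not tested.

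**Figure D4:**
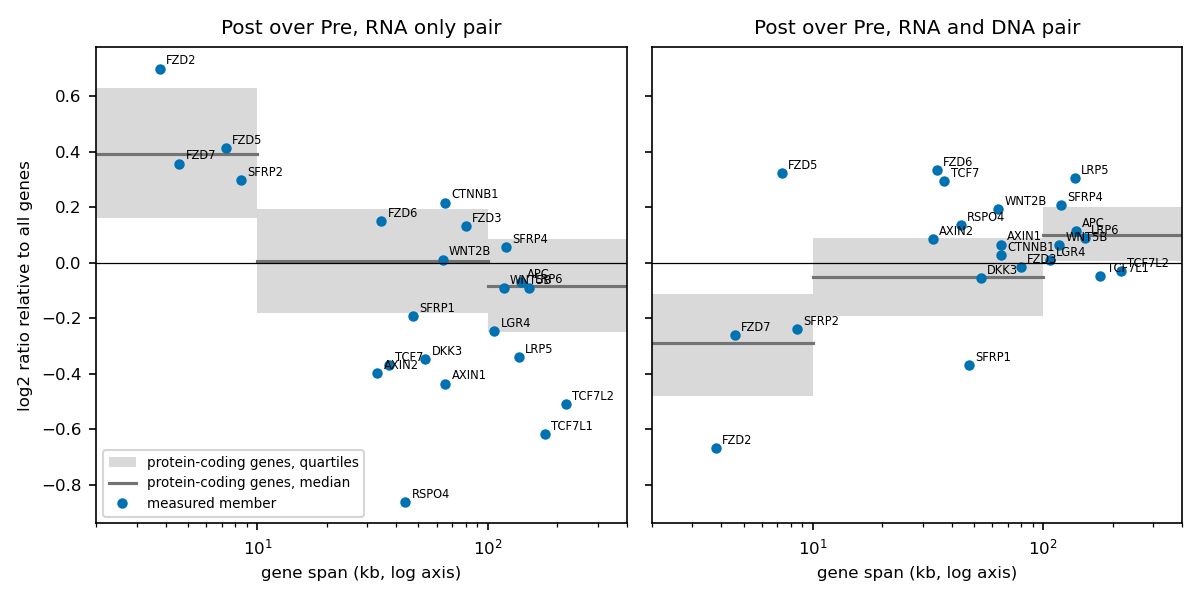
Relative log2 ratio of Post over Pre against gene span on a log axis for the 22 measured members, with RNA only (left) and with RNA and DNA (right), over the quartiles (grey) and medians (lines) of protein-coding genes in 3 span classes. The 4 short members lie above 0 on the left and 3 of them lie below 0 on the right, and 9 members lie below the grey band of their class on the left, with RSPO4, TCF7L1 and TCF7L2 lowest.

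When each member was set against protein-coding genes of its own span class instead, an alternative added after the values were seen, FZD2 no longer passed the 2-fold rule and lay at -0.46 in the Post pair of DNA profiling. FZD5 was then at 0.02 in the RNA only pair of the order of RT, within counting error, but at 0.61 (0.32 to 0.93) in the RNA and DNA pair and 0.44 (0.11 to 0.79) in the Post pair of DNA profiling. SFRP1 stayed below its class in both pairs, at -0.20 and -0.32, and TCF7L1 and TCF7L2 joined it, at -0.53 and -0.42 with RNA only and -0.15 and -0.13 with RNA and DNA, while CTNNB1 was above in both, at 0.21 and 0.08. By counting intervals these 4 were the only members on the same side in both pairs on this scale, where 3.37% of protein-coding genes were higher in both and 4.7% lower.

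Long members also hold many runs of A in their introns, which read as A on the transcript strand. Runs of at least 15 A numbered 132 in the 22 measured members, of which 126 were intronic. TCF7L1 had 20, LRP6 and APC 13 each, TCF7L2 and WNT2B 12 each, and FZD2, FZD5, FZD7, SFRP2 and AXIN2 had none. The number of runs followed span closely (Spearman's rho 0.91, n = 22), so one cannot be told apart from the other, and its rho with the ratio of Post over Pre was -0.33 with RNA only and 0.18 with RNA and DNA. Whether reads in introns were counted is not stated. The windows below, read from GRCh38 on the strand of the gene, are shown as examples of intronic runs in long members, with the run in capitals, and come from TCF7L1 (chr2:85137873-85137919, plus strand) and LGR4 (chr11:27461827-27461881, minus strand). The run is 17 and 25 bases long, and the bases before it are alike in both.
TCF7L1: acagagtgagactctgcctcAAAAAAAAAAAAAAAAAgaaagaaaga
LGR4: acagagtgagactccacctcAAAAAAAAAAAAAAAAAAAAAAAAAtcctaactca

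Further genes of the pathway were read from 9 lists. All 89 were in the files and 64 averaged 10 RPM or more. None was 2-fold apart in any of the 4 comparisons, where 1.38%, 0.251%, 0.0173% and 2.36% of all genes were. By counting intervals 10 were higher and 26 lower for Post over Pre with RNA only (18.8% and 21.4% of all genes), and 18 higher and 6 lower with RNA and DNA (17.7% and 19.7%). With DNA profiling, 1 was higher and 12 lower in the Pre pair (7.58% and 6.96%), and 21 higher and 9 lower in the Post pair (20.7% and 20.4%). Their medians were -0.11, 0.04, -0.01 and 0.08, each of the same sign as the members' own. Because the shares of all genes were not matched to these lists for reads or gene span, the counts of intervals show no trait of the lists.

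Among the other WNT receptors, ROR1, a receptor kinase that binds WNT5A, had 1184, 1140, 714 and 1258 RPM, more reads than any member, and PTK7, a pseudokinase of planar cell polarity, had 108, 104, 63.7 and 99.3 RPM. In the RNA only pair 3 of the 4 receptors in that list were clear below the median (21.4% of all genes), while 3 were clear above when DNA was profiled too (17.7%). Neither share was matched for reads or gene span. Of the ligand secretion and removal genes, the glypicans GPC4 and GPC3 led with means of 387 and 245 RPM. ZNRF3, a ubiquitin ligase that removes Frizzled receptors, had 194, 176, 98.8 and 177 RPM, while RNF43, which does the same, stayed between 3.46 and 4.96 RPM. In the RNA only pair ZNRF3 had -0.53, close to TCF7L2.

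KREMEN1 and APCDD1 were the only other secreted or membrane antagonists measured of 9, with means of 17.8 and 16.9 RPM. DAAM1 and PRICKLE2 led the planar cell polarity genes, with means of 66.2 and 62.7 RPM. In that list CELSR3, an atypical cadherin, was higher in Post in both pairs, at 0.69 and 0.40. Of the 20 cytoplasmic transducers, 18 were measured, and TNKS and CSNK1A1 had the most reads, with means of 225 and 218 RPM. TNKS, which marks AXIN for degradation, and the casein kinase CSNK1G3 were higher in Post in both pairs, at 0.12 and 0.15 and at 0.19 and 0.13. CSNK1E, a kinase that acts on Dishevelled, was lower in both, at -0.49 and -0.67, with 72.4, 76.8, 37.7 and 44.8 RPM. These 4 were the only genes of the lists on the same side in both pairs of the order of RT, 3 higher and 1 lower of 64, where 3.88% of all genes were higher and 4.32% lower, and none was on the same side in both pairs of DNA profiling (0.389% and 0.51%).

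TBL1XR1 and EP300 led the nuclear co-factors with means of 356 and 190 RPM. In the RNA only pair 9 of the 12 measured were clear below the median, where 21.4% of all genes were. That share was not matched for reads or gene span, and whether the co-factors differ from genes alike in both was not tested. All 7 cadherin partners of β-catenin were measured, led by CTNNA1 and CTNNA2 with means of 265 and 238 RPM. Of 16 common target genes of the pathway, 5 were measured, and SP5, TBXT, BMP4 and MSX2 were at 0 in at least 1 library. CCND1, a cyclin, had 54.3, 61.0, 38.9 and 46.3 RPM.

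The promoters of the members, 250 bases before to 50 after the start in RefSeq, were searched on both strands for the TCF and LEF core letters CTTTGAT and CTTTGAA. Of 35116 promoters of this length, 2.62% held the first, 4.43% the second and 6.86% either. Of 49 promoters of 39 members with an entry, 1 held the second and none the first. That one belongs to DKK1, which had the fewest counts of all members. It is printed as the only member promoter with a match, from chr10:52314031-52314330 of GRCh38.p14 on the plus strand, with the match in capitals. A match describes the letters alone.
DKK1: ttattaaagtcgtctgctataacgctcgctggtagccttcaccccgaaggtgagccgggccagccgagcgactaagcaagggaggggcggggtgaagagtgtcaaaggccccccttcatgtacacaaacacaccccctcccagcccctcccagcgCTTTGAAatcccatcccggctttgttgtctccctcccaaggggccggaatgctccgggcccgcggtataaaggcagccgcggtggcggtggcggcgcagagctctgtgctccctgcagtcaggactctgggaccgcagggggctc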

How the data were processed

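Counts per gene symbol of 4 libraries were used as deposited. Per the labels and the methods, the authors mapped barcodes with Bowtie 1.3.1, trimmed reads with Trim Galore 0.6.10 and aligned them to GRCh38 with STAR 2.7.11b. They then kept uniquely mapped reads and removed duplicates by position and unique molecular identifier. These steps are stated for the single-cell data. The annotation, the strand and the treatment of introns are not given in the sources used here. A gene on the opposite strand overlaps 14 members, whose reads cannot then be told apart. The files hold 60 other barcode columns that the labels tie to no condition, and these were left out.

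Counts were divided by library totals (6368721 to 10089552) to give RPM. Ratios were taken on log2(RPM + 1), which understates changes of low genes, and centred on the median of genes averaging 10 RPM or more. A call was at least 2-fold. Intervals of RPM are exact Poisson intervals, those of ratios Clopper-Pearson intervals, and without replicates they cover counting error only. Those of ratios were computed from the counts without the added 1 RPM, so in low genes a ratio and its interval are on different scales. Gene models came from GENCODE release 44 on GRCh38, and all 55 members matched. Of the 11564 genes tested, 9690 matched 1 protein-coding model (83.8%). Members, lists and comparisons were chosen with earlier results of these data known. Every member with a mean of at least 10 RPM was named with its RPM in each library, and of each further list the 2 genes with the most reads were named. CSNK1E, CSNK1G3 and CELSR3 were named after their values were seen.

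Alternatives were TMM and median-of-ratios scaling, totals without the 6 FP236383 and FP671120 genes, no centring, other filters, pseudocounts and folds, and a model with both factors as additive terms, fitted with edgeR 4.0.16 (quasi-likelihood test) and DESeq2 1.42.0, with Benjamini-Hochberg adjustment. The steps were also run on simulated counts, drawn with less spread between libraries than edgeR estimated here (biological coefficient of variation 0.14). That run does not show how the steps perform at the spread of these libraries. Python 3.11.15 with scipy 1.17.1, numpy 2.4.6, pandas 2.3.3 and matplotlib 3.10.9, and R 4.3.3, did the rest.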

Additional observations from a re-analysis of the deposited data

Results flagged for a closer look

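In 7 members the counting intervals lay clear of the median of all genes on opposite sides in the 2 pairs of a factor, 5 for the order of RT, where 10.2% of all genes did so, and 6 for DNA profiling, where 7.86% did. The difference between the pairs was not tested, since each condition is 1 library. For the order of RT, the relative log2 ratio of the RNA only pair minus that of the RNA and DNA pair was 1.37 for FZD2, 0.62 for FZD7, 0.54 for SFRP2, -0.64 for LRP5 and -0.66 for TCF7. For DNA profiling, the Pre pair minus the Post pair gave 1.37 for FZD2, 0.62 for FZD7, 0.55 for SFRP2, -0.64 for LRP5, -0.99 for RSPO4 and -0.49 for AXIN1. Both differences come from the same 4 libraries and are nearly the same quantity, so a member that appears in both is seen once. FZD2 and RSPO4 had the widest differences, in opposite directions, and rest on 717 and 679 counts over the 4 libraries.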

How the results depend on the processing

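Of 120 values recomputed under an alternative, 107 stayed within 1.5 times of the count or within the 95% interval of the median over members, and 13 moved. Some of the 107 could hardly have moved. Ratios under TMM and median-of-ratios scaling were centred again, which takes out any library factor except its effect through the pseudocount. The number of members with a count in the smallest library, redrawn at its own total, was also fixed. The 107 therefore do not measure how far the ratios depend on scaling. Without centring, 2 members (RSPO4 and TCF7L1) were 2-fold lower in Post in the RNA only pair, 0 were 2-fold apart with DNA profiling in the Post pair, and the members' medians in these comparisons were -0.53 and 0.54, because the median of all genes is then left in. FZD2, the 1 member called with DNA profiling in the Post pair, lay close to the threshold, and the count was 0 with a pseudocount of 5 RPM, 0 with a filter at 50 RPM, which leaves FZD2 out, and 0 when members were set against genes of their own span class. With a filter at 1 RPM the 1 call there was FZD8 instead. At 1.5-fold, 3 members (FZD2, RSPO4 and TCF7L1) were apart in the RNA only pair of the order of RT and 1 (FZD2) in the RNA and DNA pair. With counting intervals in place of the 2-fold rule, 15, 9, 7 and 14 members were apart in the 4 comparisons, in the order in which they were described. No paired analysis was possible because each condition is 1 library and the labels give no replicate numbers. Leaving out a library leaves no residual degree of freedom. The comparisons without Post, RNA only are the RNA and DNA pair of the order of RT and the Pre pair of DNA profiling, given above. Depth limits the members under 1 RPM, since 0 counts allow up to 0.297 to 0.471 RPM.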

Other observations

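Long members tended to have more reads than short ones, with exceptions both ways. DKK2, the longest member at 362 kb, had a mean of 4.67 RPM, and SFRP2, at 8.49 kb, had 136 RPM. The shares below were not set beside those of all genes of the same span. Of the 15 members with a span under 10 kb, 4 were measured (FZD2, FZD5, FZD7 and SFRP2), and of the 13 with a span of 100 kb or more, 8 were. Across all 55 members Spearman's rho of span with mean RPM was 0.55, a description over genes that share the same libraries. The 6 single-exon members are all Frizzled receptors, and FZD2 and FZD7 were the only ones among them at 10 RPM or more. Across the measured members alone the rho of span with mean RPM was 0.46 (n = 22).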
